A study of Mus musculus with 2 samples.

Results

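The genes described here are the core and targets of the NF-kB pathway with the tumor necrosis factor (TNF) and interleukin-1 (IL-1) ligands and receptors that feed it. They were chosen by name as rows of the count table, and all 34 were found among its 31053 genes. They comprise 5 NF-kB subunits, 5 genes of the IkB family, 3 components of the IKK kinase complex, 5 secreted ligands or ligand antagonists, 4 receptors, 5 adaptor and feedback genes and 7 target genes. The question was how their transcripts differed between a control liver and a liver expressing a constitutively active YAP, in which cell classes they were found, and which of them, if any, exceeded free RNA in hepatocyte barcodes.

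Hepatocytes were isolated by perfusion from C57BL/6 mice and profiled by droplet single-cell RNA-seq of transcript 3′ ends. The control library (genotype LaptTA;WT) carried the LAP promoter-driven tetracycline transactivator (tTA) and no inducible YAP. The tetYAP 4W library (genotype LaptTA; tetYAP) carried the same transactivator and a tetracycline-responsive mutant YAP, which is silent while doxycycline is given in the food and was induced for 4 weeks by its withdrawal, started when the mice were 4 weeks old. Both genotypes thus express tTA in liver, and the promoter directs it to hepatocytes, so that other cells of these livers carry the transgene without its driver. The ages at dissociation are not stated in the sources used here, nor whether a library held 1 animal or several.

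NF-kB is a family of dimeric transcription factors that is kept in the cytoplasm by IkB proteins. TNF or IL-1, bound to their receptors, recruit adaptors of the TRAF family and activate IKK, which marks IkB for destruction and lets the dimer enter the nucleus. Some of the genes that NF-kB then switches on encode its own inhibitors, so that their transcripts are commonly used as a readout of the pathway. In liver, Kupffer cells, the resident macrophages, are a main source of TNF and IL-1, while hepatocytes respond to them and depend on NF-kB for survival under TNF.

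RefSeq promoters on GRCm38.p6 (250 bases before to 50 bases after the annotated start) were at hand for 27 of the 34 genes. They were searched on both strands for GGG and CC with any 5 bases between them, a loose form of the kB motif, and overlapping matches were counted once per promoter. A match lay in at least 1 promoter of 23 of the 27 genes (85.2%), against 58.4% of the 19407 genes of the count table with a promoter in the same table, so the letters are common in promoters at large. The match nearest to the start is given here for 8 members on which the results turn, with 10 bases on either side, read 5′ to 3′ on the strand of the gene, the matched letters in capitals. The first 4 are the inhibitor Nfkbia, the feedback gene Tnfaip3 and the targets Irf1 and Icam1. The others are the TNF receptor Tnfrsf1a, the subunit Rela, and the kinase Chuk and the target Sod2, which were the most abundant members in hepatocyte barcodes.
Nfkbia, chr12:55492657-55492686, minus strand: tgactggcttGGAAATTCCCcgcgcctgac
Tnfaip3, chr10:19015403-19015432, minus strand: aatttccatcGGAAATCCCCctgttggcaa
Irf1, chr11:53769991-53770020, plus strand: agtccgggccGGGGAATCCCgctaagtgtt
Icam1, chr9:21015810-21015839, plus strand: cagcgaggcaGGACCACCCCtctctgccag
Tnfrsf1a, chr6:125349497-125349526, plus strand: aggcttagagGGGTTAGTCCaccggtctaa
Rela, chr19:5637465-5637494, plus strand: gagtaatcgcGGGCCCGCCCtccaggcggg
Chuk, chr19:44107524-44107553, minus strand: accaatcccaGGGTGATTCCaggagctcgg
Sod2, chr17:13007762-13007791, plus strand: ccccgaggcgGGGCGGGGCCaaggccgatg
These matches describe the letters only, and no binding was measured here. Members without a match in the window were Nfkbib, Il1a, Il1b and Traf1. Nfkb1, Relb, Nfkbiz, Ikbkb, Cd40, Vcam1 and Cd83 had no entry.

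The control library held 2989 barcodes and 9509885 unique molecular identifiers (UMIs, each standing for 1 captured transcript), and the tetYAP 4W library 1524 barcodes and 6777210 UMIs, with medians of 3117 and 4150 UMIs per barcode. No barcode sequence was shared between them. Y-linked genes had 716 UMIs in the control library and 0 in the tetYAP 4W library, and Xist 3 and 4859, so the sex of the animals and the genotype cannot be told apart. With 1 library per group no test between groups was possible, and every interval below is a 95% interval that covers counting error only. A UMI count depends on the number of captured transcript ends and not on transcript length, so that levels of different genes can be set side by side.

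Barcodes were classed by the UMIs of marker genes. Those with at most a few UMIs of every other class were called hepatocyte barcodes (2814 in control, 651 in tetYAP 4W). The other classes in control and tetYAP 4W were macrophages (28 and 269 barcodes), endothelial cells (58 and 147), T or NK cells (10 and 116), B cells (0 and 44), neutrophils or monocytes (0 and 25), dendritic cells (3 and 6), stellate cells (9 and 23) and erythroid cells (4 and 35), with 63 and 208 barcodes mixed or between classes. The label hepatocytes thus covered 94.1% of the control and 42.7% of the tetYAP 4W barcodes. By the study's methods, both conditions were down-sampled to the same number of cells, and cells above a maximum of UMIs were left out. The 2989 control and 1524 tetYAP 4W barcodes that remain reach up to 7277 and 7493 UMIs. The classes of the barcodes left out are not known here, so shares of classes describe the deposited barcodes only. Markers of hepatocytes did not set hepatocyte barcodes apart: a median of 313 UMIs of 10 such genes was found in tetYAP 4W hepatocyte barcodes and between 236 and 280 in the other classes, and 372 against 224.5 to 435 in control. The nuclear RNA Malat1 had a median of 2 UMIs in hepatocyte barcodes of both libraries, 1 and 2 in erythroid barcodes, and 12 to 45 in macrophage, endothelial, T or NK, B, neutrophil or monocyte and dendritic barcodes. The median share of mitochondrial UMIs in hepatocyte barcodes was 28.2% in control and 57.9% in tetYAP 4W. A hepatocyte barcode is therefore one without markers of another class, and whether it held an intact hepatocyte was not tested.

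Over all barcodes, most of the pathway was higher in the tetYAP 4W library. Of the 34 members, 32 had at least 20 UMIs over both libraries; Il6 (0 UMIs in control, 18 in tetYAP 4W) and Ptgs2 (0 and 8) did not. The shares of the library total (CPM, UMIs scaled to a common library total) of the 32 were at least 2-fold higher in tetYAP 4W for 22 and at least 2-fold lower for 2. Among all 11526 genes past the same minimum, 36.1% were at least 2-fold higher and 7.83% at least 2-fold lower. The median log2 ratio of the 32 was 2.34 (median bounds 1.68 to 2.89), beside 0.54 for all genes. Of the 32, 10 had under 20 UMIs in control, so that they passed the minimum through the tetYAP 4W library. Normalization by TMM factors lowered every log2 ratio over all barcodes by 0.56, to a median of 1.78 for the members. In sums over all barcodes, more cells of a class and more RNA per cell cannot be told apart.

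The location of these UMIs differed between the libraries as deposited. In control, 86.2% (85.2 to 87.2) of the 4682 UMIs of the members lay in hepatocyte barcodes, which held 92.5% of all UMIs. In tetYAP 4W, 16.7% (15.8 to 17.7) of 5783 UMIs lay there, although hepatocyte barcodes held 40.9% of all UMIs. Macrophage barcodes held 33.8% of the members' UMIs in tetYAP 4W and 17.5% of all UMIs, endothelial barcodes 16.5% and 12.0%, and neutrophil or monocyte barcodes 5.24% and 1.84%. Among classes of at least 10 barcodes, 13 of the 32 members had their highest level per barcode in neutrophils or monocytes, 8 in endothelial cells, 3 each in macrophages, B cells and stellate cells, and 2 in T or NK cells, and none in hepatocyte barcodes. The same count over all genes was not made, so this one has no background beside it. Levels per barcode were not scaled to depth. The 25 neutrophil or monocyte barcodes had a median of 5035 UMIs and hepatocyte barcodes 4004, with median mitochondrial shares of 21.1% and 57.9%.

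**Figure D1:**
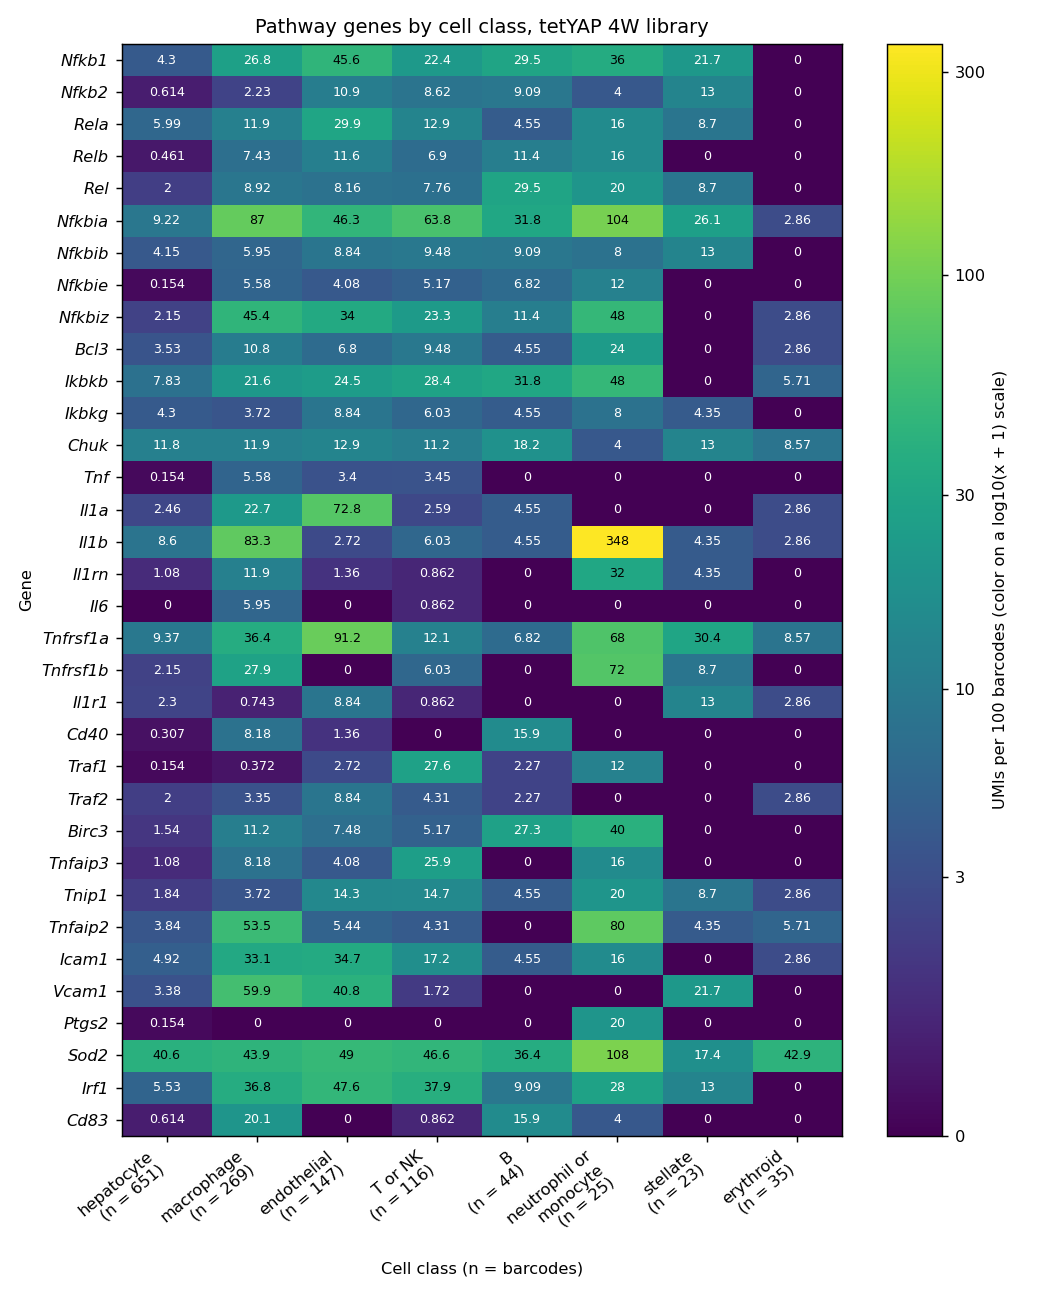
UMIs per 100 barcodes of the 34 genes (rows) in 8 cell classes (columns, with the number of barcodes) of the tetYAP 4W library; colors follow log10(x + 1) and the value is printed in each cell. In the hepatocyte column only Sod2 (40.6) and Chuk (11.8) exceed 10, and the brightest cell is Il1b in neutrophils or monocytes (348).

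Sums over hepatocyte barcodes alone moved less. There 23 of the 34 members had 20 UMIs over both libraries, and 8 were at least 2-fold higher and 3 at least 2-fold lower in tetYAP 4W. Of all 9521 genes past this minimum, 12.3% were at least 2-fold higher and 19.3% at least 2-fold lower. Of the 23, 7 had under 20 UMIs in control and passed the minimum through the tetYAP 4W sum; they are among the 8 called higher, of which only Irf1 had more. The median log2 ratio of the 23 was 0.34 (median bounds -0.38 to 1.13) and that of all genes -0.29. The outcome depended on which barcodes were admitted. Leiden clusters gave 906 hepatocyte barcodes in tetYAP 4W in place of 651, 17 members at least 2-fold higher and a median of 1.57. There a cluster that met no marker rule was named hepatocyte by default. This call named 0 neutrophil or monocyte, 0 dendritic and 0 stellate barcodes in tetYAP 4W, in place of 25, 6 and 23. Its hepatocyte barcodes can therefore include such cells and mixed ones. Without barcodes above 30% mitochondrial UMIs, 10 members were higher, 0 were lower, and the median was 1.14. The median mitochondrial share of hepatocyte barcodes was 57.9% in tetYAP 4W and 28.2% in control. This cut therefore removed a larger part of the tetYAP 4W than of the control hepatocyte barcodes, and the number left is not given here. Scaling to totals without mitochondrial and the 50 most abundant genes raised every log2 ratio in hepatocyte barcodes by 0.60, after which 11 members were at least 2-fold higher and 0 lower.

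**Figure D2:**
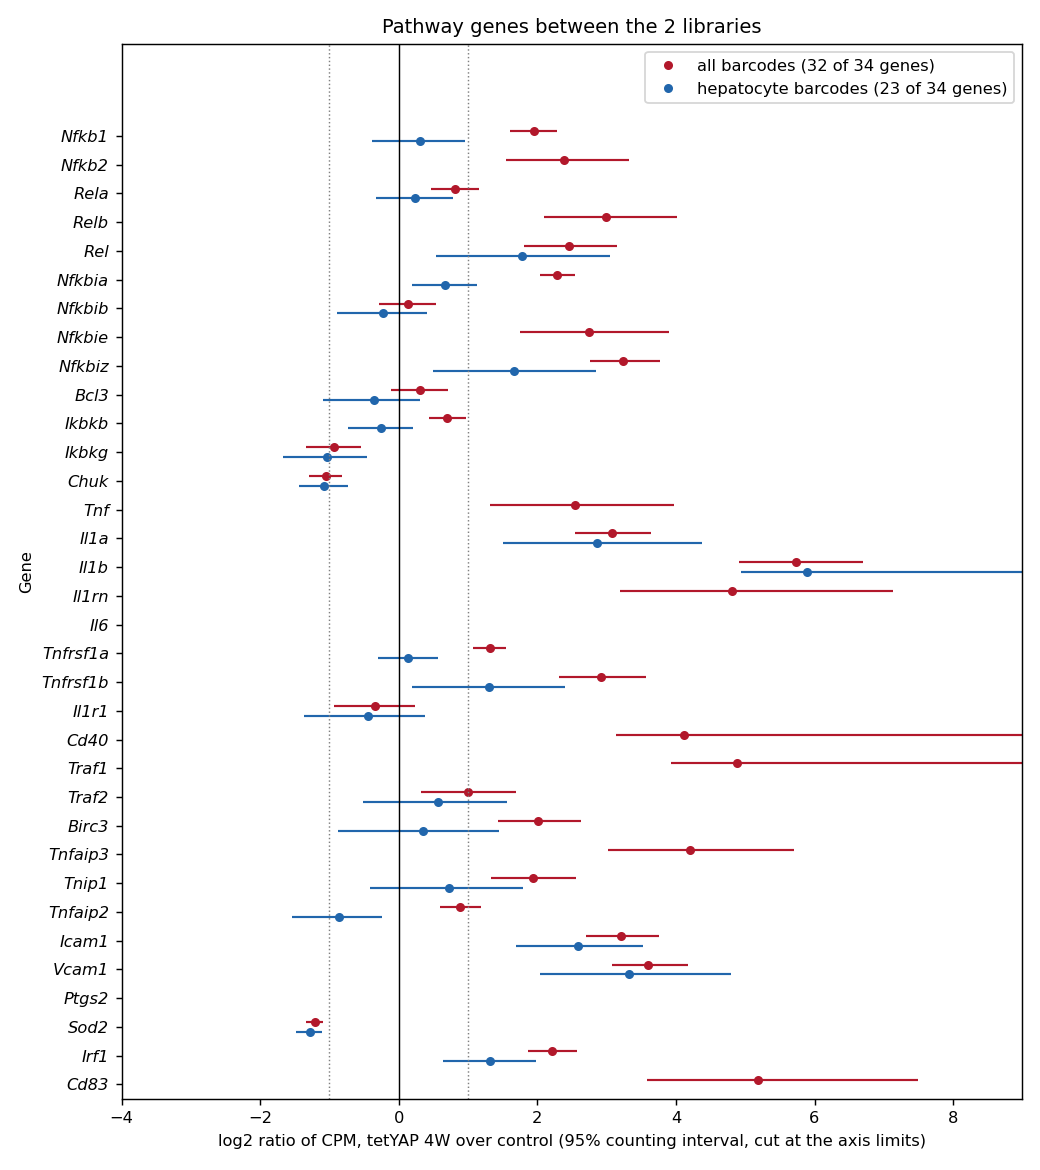
log2 ratio of CPM, tetYAP 4W over control, of each gene over all barcodes (red, 32 genes) and over hepatocyte barcodes (blue, 23 genes); lines are 95% counting intervals, cut at the axis limits, and dotted lines mark a fold of 2. Most red points lie right of the upper dotted line, while the blue points outside the dotted lines are those of Il1a, Il1b, Icam1, Vcam1, Irf1, Rel, Nfkbiz and Tnfrsf1b on the right and Sod2, Chuk and Ikbkg on the left.

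The NF-kB subunits were higher over all barcodes in tetYAP 4W, with 4 of 5 past 2-fold. Nfkb1 (encoding the p105 precursor of p50) had 101 UMIs in control and 277 in tetYAP 4W, a log2 ratio of CPM of 1.94 (1.61 to 2.29). Of the 277, 72 lay in macrophage, 67 in endothelial, 26 in T or NK, 13 in B and 28 in hepatocyte barcodes, whereas hepatocyte barcodes held 72 of the 101 control UMIs. Nfkb2, the precursor of p52, had 15 and 56 UMIs and a log2 ratio of 2.39 (1.55 to 3.32). Its tetYAP 4W UMIs were spread over endothelial (16), T or NK (10), macrophage (6) and hepatocyte (4) barcodes. Relb, the usual partner of p52, had 12 and 68 UMIs and a log2 ratio of 2.99 (2.09 to 4.01), with 20 of the 68 in macrophage, 17 in endothelial and 3 in hepatocyte barcodes. Rel, a subunit prominent in lymphocytes, had 25 and 98 UMIs (2.46, 1.81 to 3.16), 24 of the 98 in macrophage and 13 each in B cell and hepatocyte barcodes. Its level per 100 barcodes was highest in B cells, at 29.5 UMIs against 2.0 in hepatocyte barcodes. Rela, which encodes p65, differed least, with 125 and 156 UMIs and a log2 ratio of 0.81 (0.46 to 1.16), and hepatocyte barcodes held 105 and 39 of them. In hepatocyte barcodes the log2 ratio of Rela was 0.24 (-0.33 to 0.78) and that of Nfkb1 0.30 (-0.38 to 0.95), both intervals including 0.

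The genes of the IkB family, inhibitors and nuclear members, divided. Nfkbia (IkBa), the classical feedback inhibitor, had 163 UMIs in control and 568 in tetYAP 4W, a log2 ratio of 2.29 (2.04 to 2.55). Macrophage barcodes held 234 of the 568, T or NK barcodes 74, endothelial barcodes 68, hepatocyte barcodes 60 and neutrophil or monocyte barcodes 26. Nfkbiz (IkBz), a nuclear member of the family that acts on secondary response genes, had 39 and 263 UMIs (3.24, 2.75 to 3.77), 122 of the 263 in macrophage, 50 in endothelial and 14 in hepatocyte barcodes. Nfkbie (IkBe) had 10 and 48 UMIs (2.75, 1.75 to 3.90), of which 15 lay in macrophage and 1 in hepatocyte barcodes of tetYAP 4W. By contrast Nfkbib (IkBb) had 114 and 89 UMIs and a log2 ratio of 0.13 (-0.28 to 0.54), and Bcl3, a nuclear IkB protein, had 108 and 95 UMIs and a ratio of 0.30 (-0.11 to 0.71). Both lay mainly in hepatocyte barcodes in control (100 of 114 and 94 of 108 UMIs) and partly in tetYAP 4W (27 of 89 and 23 of 95). Their macrophage barcodes held 16 and 29 UMIs in tetYAP 4W.

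In the kinase complex Chuk and Ikbkg were lower in tetYAP 4W and Ikbkb was higher over all barcodes, with 1 of the 3 past 2-fold lower and none past 2-fold higher. Chuk (IKKa) had 554 UMIs in control and 190 in tetYAP 4W, and its log2 ratio was -1.06 (-1.30 to -0.81) over all and -1.07 (-1.44 to -0.73) in hepatocyte barcodes. Hepatocyte barcodes held 515 of the control and 77 of the tetYAP 4W UMIs, that is 18.3 and 11.8 per 100 barcodes. In tetYAP 4W the level of Chuk was 11.2 per 100 in T or NK cells, 12.9 in endothelial cells, 18.2 in B cells and 8.57 in erythroid cells. Ikbkg (NEMO, the regulatory subunit) had 201 and 75 UMIs, with a log2 ratio of -0.93 (-1.34 to -0.54) over all and -1.04 (-1.67 to -0.46) in hepatocyte barcodes, which held 183 and 28 UMIs. The annotated span of Ikbkg overlaps that of G6pdx by 19398 bases. Ikbkb (IKKb), the catalytic subunit that phosphorylates IkB, had 216 and 250 UMIs, with a log2 ratio of 0.70 (0.43 to 0.97) over all and -0.25 (-0.73 to 0.20) in hepatocyte barcodes, where 193 and 51 UMIs lay. Of the 250 UMIs of Ikbkb in tetYAP 4W, 58 were in macrophage, 36 in endothelial and 33 in T or NK barcodes. The lower level of Chuk and Ikbkg in hepatocyte barcodes did not hold without barcodes above 30% mitochondrial UMIs, where the log2 ratios were 1.14 (0.61 to 1.63) and 0.41 (-0.75 to 1.39). As said above, that cut fell more on the tetYAP 4W than on the control hepatocyte barcodes.

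The ligands had the highest median log2 ratio of the groups over all barcodes (3.94, 4 members with enough UMIs), and most of their UMIs lay outside hepatocyte barcodes. Il1b, Il1rn and Tnf had under 20 UMIs in control and passed the minimum through the tetYAP 4W library. Some members of other groups, such as Cd83 (5.19) and Traf1 (4.88), had higher ratios than Il1a and Tnf. Il1b, the secreted IL-1 of activated myeloid cells, had 12 UMIs in control and 455 in tetYAP 4W, a log2 ratio of 5.73 (4.91 to 6.70). Of the 455, 224 lay in macrophage barcodes (83.3 per 100), 87 in neutrophil or monocyte barcodes (348 per 100) and 4 in endothelial barcodes, and in control 10 of 12 lay in macrophages. The 56 UMIs of Il1b in tetYAP 4W hepatocyte barcodes, against 1 in control, came from 30 barcodes, 1 of which held 18. Of these 56, 28 lay in the 29 hepatocyte barcodes with more than 1 UMI of the leukocyte genes Ptprc, Coro1a, Laptm5 and Rac2. Il1a, the IL-1 form that acts as an alarmin, had 34 and 204 UMIs (3.07, 2.54 to 3.64). Endothelial barcodes held 107 of the 204 (72.8 per 100) and macrophage barcodes 61 (22.7 per 100), with 16 in hepatocyte barcodes, and in control 19 of 34 were endothelial. Il1rn, the receptor antagonist, had 3 and 60 UMIs (4.81, 3.19 to 7.13), 32 of the 60 in macrophage, 8 in neutrophil or monocyte and 7 in hepatocyte barcodes. Tnf itself was sparse, with 7 and 29 UMIs (2.54, 1.32 to 3.97), of which 15 were in macrophage, 5 in endothelial, 4 in T or NK and 1 in hepatocyte barcodes of tetYAP 4W. Il6, an acute phase cytokine and NF-kB target, had 16 of its 18 UMIs in macrophage barcodes. Il6 had 0 UMIs in hepatocyte barcodes of either library, which allows up to 3 UMIs in each.

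Of the 4 receptors, 3 were past 2-fold higher over all barcodes, and Il1r1 was not. Tnfrsf1a (TNFR1), the widely expressed TNF receptor, had 223 and 394 UMIs and a log2 ratio of 1.31 (1.07 to 1.55) over all barcodes, but 0.14 (-0.31 to 0.57) in hepatocyte barcodes, with 176 and 61 UMIs. Its level in tetYAP 4W was 91.2 per 100 in endothelial cells (134 UMIs), 36.4 in macrophages (98 UMIs) and 9.37 in hepatocyte barcodes. Tnfrsf1b (TNFR2), the leukocyte TNF receptor, had 27 and 145 UMIs (2.91, 2.31 to 3.56), 75 of the 145 in macrophage, 18 in neutrophil or monocyte, 14 in hepatocyte and 0 in endothelial barcodes. Cd40, a costimulatory receptor of antigen-presenting cells, had 1 and 37 UMIs, with an interval of the log2 ratio from 3.13 to 11.0, and 22 of the 37 lay in macrophage and 7 in B cell barcodes. Il1r1, the signalling receptor for IL-1, had 71 and 40 UMIs and a ratio of -0.34 (-0.94 to 0.24). Hepatocyte barcodes held 65 of the 71 UMIs of Il1r1 in control and 15 of the 40 in tetYAP 4W, with 13 in endothelial, 3 in stellate and 2 in macrophage barcodes.

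Of the adaptor and feedback genes, 4 of 5 were past 2-fold higher over all barcodes. Traf1, an NF-kB induced adaptor of lymphocytes, had 1 and 63 UMIs, an interval of the log2 ratio from 3.94 to 11.8, and 32 of the 63 lay in T or NK barcodes (27.6 per 100) and 1 in a hepatocyte barcode. Tnfaip3 (A20), the deubiquitinase that shuts the pathway off, had 6 and 79 UMIs (4.21, 3.02 to 5.70), 30 of the 79 in T or NK, 22 in macrophage and 7 in hepatocyte barcodes. Birc3 (cIAP2), a ubiquitin ligase of the TNF receptor complex, had 33 and 95 UMIs (2.01, 1.43 to 2.63), with 30 of the 95 in macrophage, 12 in B, 11 in endothelial and 10 each in neutrophil or monocyte and hepatocyte barcodes. Tnip1, a partner of A20, had 32 and 87 UMIs (1.93, 1.33 to 2.56), 21 of the 87 in endothelial, 17 in T or NK, 12 in hepatocyte and 10 in macrophage barcodes. Traf2, the adaptor that links TNFR1 to the kinases, lay at the 2-fold limit with 33 and 47 UMIs (0.999, 0.33 to 1.69) and had 13 UMIs each in hepatocyte and endothelial barcodes of tetYAP 4W. In hepatocyte barcodes none of the 3 members of this group with enough UMIs passed 2-fold: Birc3, Tnip1 and Traf2 had log2 ratios of 0.34, 0.73 and 0.56, with intervals that include 0.

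Of the 6 targets with enough UMIs over all barcodes, 4 were past 2-fold higher and 1, Sod2, past 2-fold lower. Vcam1, an adhesion molecule for leukocytes, had 32 UMIs in control and 277 in tetYAP 4W (3.60, 3.07 to 4.18), of which 161 lay in macrophage (59.9 per 100), 60 in endothelial (40.8 per 100), 5 in stellate and 22 in hepatocyte barcodes. Icam1, the ligand of leukocyte integrins, had 36 and 238 UMIs (3.21, 2.70 to 3.76), with 89 of the 238 in macrophage, 51 in endothelial, 32 in hepatocyte and 20 in T or NK barcodes. Irf1, an interferon regulatory factor, had 89 and 294 UMIs (2.21, 1.87 to 2.57), 99 of the 294 in macrophage, 70 in endothelial, 44 in T or NK and 36 in hepatocyte barcodes. Cd83, a marker of activated antigen-presenting cells, had 3 and 78 UMIs (5.19, 3.59 to 7.5), 54 of the 78 in macrophage, 7 in B and 4 in hepatocyte barcodes. Tnfaip2 was 175 and 231 UMIs, higher over all barcodes (0.89, 0.60 to 1.18) but lower in hepatocyte barcodes (144 and 25 UMIs, -0.86, -1.53 to -0.24). Macrophage barcodes held 144 of the 231 tetYAP 4W UMIs of Tnfaip2. Ptgs2, which encodes cyclooxygenase-2, had 5 of its 8 UMIs in neutrophil or monocyte barcodes. Sod2, the mitochondrial superoxide dismutase, was the most abundant member, with 2181 and 671 UMIs, a log2 ratio of -1.21 (-1.34 to -1.09) over all and -1.29 (-1.48 to -1.10) in hepatocyte barcodes (2045 and 264 UMIs). Leaving out barcodes above 30% mitochondrial UMIs brought the latter to -0.41.

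Free RNA, which droplets take up from the suspension, gives UMIs in cells that do not express a gene. Its amount in hepatocyte barcodes was measured with tracer genes of each other class that the class call did not use. In tetYAP 4W a hepatocyte barcode held on average 1.01 tracer UMIs of macrophages, 5.2% of those in a macrophage barcode, and 0.602 tracer UMIs of endothelial cells, 1.84% of those in an endothelial barcode. In control these were 0.0576 and 0.160. For each class, the tracer UMIs summed over all hepatocyte barcodes were divided by those summed over all barcodes of the class, which gave 0.126 for macrophages and 0.0814 for endothelial cells in tetYAP 4W (0.488 and 0.412 in control). The quotient of stellate cells in tetYAP 4W was higher, at 0.754, and rested on 122 tracer UMIs in 23 stellate barcodes. Stellate cells were the largest source of the UMIs expected for Nfkbib there. A gene's UMIs in the class multiplied by this quotient, added over the classes, gave the UMIs expected in hepatocyte barcodes. A gene was counted as above free RNA where it had at least 20 UMIs and at least 2 times this expectation. The expectation covers RNA from other classes and not RNA that leaked from hepatocytes.

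In control, each of the 16 members that reached 20 UMIs in hepatocyte barcodes was above free RNA of the other classes, which was the case for 98.9% of all 8572 such genes. They were Nfkb1, Rela, Nfkbia, Nfkbib, Bcl3, Ikbkb, Ikbkg, Chuk, Tnfrsf1a, Il1r1, Traf2, Birc3, Tnip1, Tnfaip2, Sod2 and Irf1. Observed over expected UMIs ranged from 2.89 (1.53 to 5.49) for Irf1 to 72.2 (14.98 to 769) for Il1r1. In tetYAP 4W, 9 of 15 members were, beside 93.6% of all 5843 genes with 20 UMIs. Sod2, Chuk and Ikbkg had the highest ratios among them. Sod2 had 264 UMIs where 26.3 were expected, a ratio of 10.04 (7.35 to 13.4). Chuk had 77 against 8.58 (ratio 8.97, 4.68 to 16.5) and Ikbkg 28 against 3.35 (8.36, 2.77 to 22.3). Bcl3 (4.69, 1.84 to 9.66), Nfkbib (4.65, 1.76 to 11.8), Ikbkb (51 UMIs against 11.9, 4.27, 2.46 to 6.80) and Rela (4.08, 2.03 to 7.60) followed. Tnfrsf1a (2.08, 1.31 to 3.19) and Icam1 (2.02, 1.11 to 3.38) lay at the limit. The 6 below it were Il1b (1.76, 1.14 to 2.61), Irf1 (1.68, 0.952 to 2.80), Nfkbia (1.42, 0.941 to 2.09), Nfkb1 (1.42, 0.740 to 2.56), Tnfaip2 (1.24, 0.655 to 2.18) and Vcam1 (0.761, 0.396 to 1.36). The UMIs of these 6 in hepatocyte barcodes were thus not distinguished from free RNA of other classes by the 2-fold rule, although Il1b, Vcam1 and Irf1 were over 2-fold higher there than in control. The remaining 19 members had under 20 UMIs in tetYAP 4W hepatocyte barcodes.

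**Figure D3:**
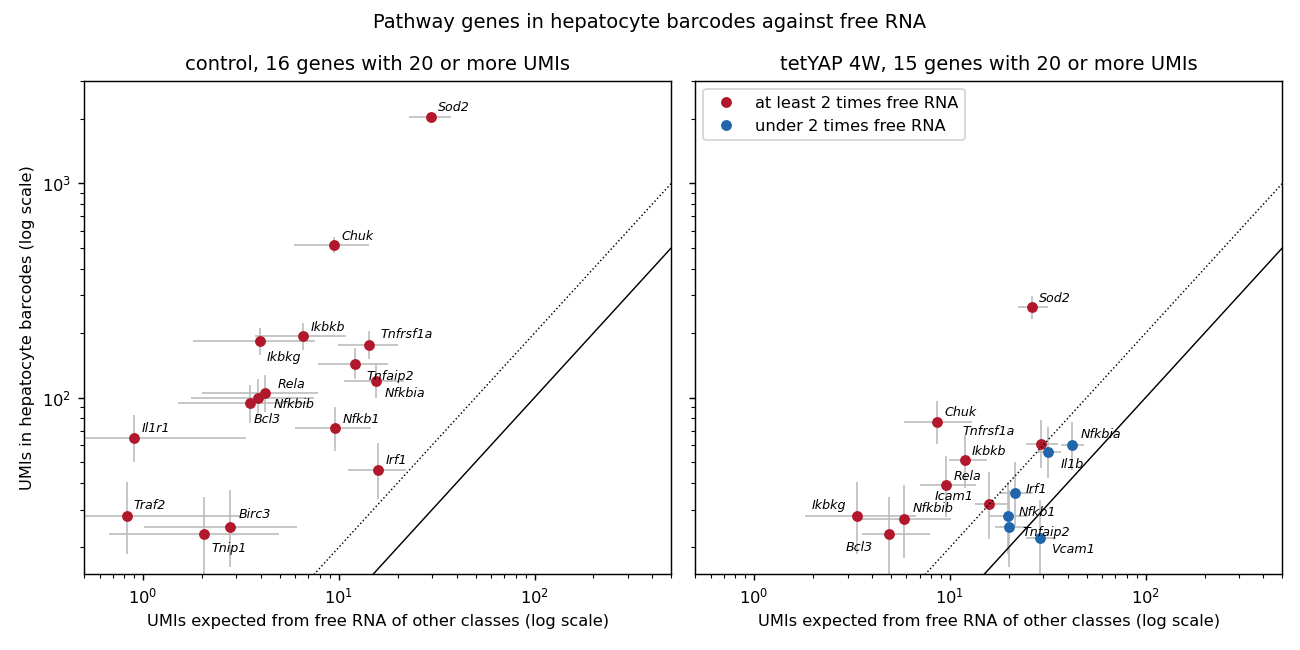
UMIs of members in hepatocyte barcodes (vertical) against UMIs expected from free RNA of other classes (horizontal), both on log scales, in control (left, 16 genes) and tetYAP 4W (right, 15 genes), with 95% counting intervals; the solid line marks equality and the dotted line 2 times the expectation. All control points lie above the dotted line, and in tetYAP 4W 6 points (blue) lie below it, Vcam1 below the solid line too.

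A second reference was the level in barcodes of T or NK, B and erythroid cells, which should hold no hepatocyte transcripts other than free ones. Against these 195 barcodes of tetYAP 4W, only Vcam1 of the 15 members was at least 2-fold higher in hepatocyte barcodes. The reference held 2 UMIs of Vcam1, and its UMIs in hepatocyte barcodes were 0.761 times those expected from free RNA of other classes. The share of all genes past this reference was not counted, so this count has no background beside it. Sod2 had 40.6 UMIs per 100 hepatocyte barcodes and 43.6 per 100 reference barcodes, and Chuk 11.8 and 12.3. Lymphocytes express several members themselves, such as Nfkbia (45.6 per 100 reference barcodes), Ikbkb (25.1) and Irf1 (24.6). Erythroid barcodes alone, 35 in number, held 15 UMIs of Sod2, or 42.9 per 100 (24.0 to 70.7), a level that the hepatocyte barcodes did not exceed. Whether erythroid cells carry Sod2 transcripts of their own was not tested. The other 33 members together had 19 UMIs in erythroid barcodes and 703 in hepatocyte barcodes, 54.3 and 108 per 100 barcodes, a ratio of 1.99 (1.26 to 3.32) per barcode and 1.67 (1.06 to 2.78) per UMI. In control the reference held 14 barcodes, with 71.4 UMIs of Sod2 per 100 against 72.7 in hepatocyte barcodes and 28.6 of Chuk against 18.3. The answer for the most abundant members thus depended on the reference: Sod2 and Chuk exceeded free RNA of other classes, and were at the level of the reference barcodes. Whether lymphocytes carry Chuk transcripts of their own was not tested. A level equal to that of the reference therefore does not tell free transcripts from those of the cells themselves.

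Hepatocyte barcodes with at least 10 Malat1 UMIs and at most 1 UMI of the 4 leukocyte genes, a split chosen after the data were seen, gave a view of barcodes with nuclear RNA. There were 29 in control and 53 in tetYAP 4W, with median mitochondrial shares of 23.4% and 31.9%. The Malat1-poor ones numbered 2783 and 587, with median shares of 28.2% and 58.9%. In tetYAP 4W, 10 of 15 members with enough UMIs had an at least 2-fold higher CPM in the Malat1-rich barcodes, beside 47% of all genes, and of 16 in control 10, beside 26.2%. The median log2 ratio was 1.91 for members and 0.93 for all genes in tetYAP 4W, and 2.08 and 1.45 in control. In tetYAP 4W the kinases Chuk and Ikbkb had the highest ratios. Chuk had 71.7 UMIs per 100 Malat1-rich and 6.30 per 100 Malat1-poor barcodes in tetYAP 4W, a log2 ratio of CPM of 3.59 (2.90 to 4.28). In control it had 79.3 and 17.6 per 100 (1.72, 1.05 to 2.32), so that the libraries were close in Malat1-rich barcodes (23 and 38 UMIs in control and tetYAP 4W). Ikbkb had 34.0 and 5.11 per 100 in tetYAP 4W (2.81, 1.88 to 3.70), and Ikbkg 15.1 and 3.24 (2.30, 0.90 to 3.56). Irf1 (2.47, 1.15 to 3.69), Bcl3 (2.36, 0.83 to 3.72), Nfkb1 (2.27, 0.76 to 3.61), Tnfaip2 (1.97, 0.34 to 3.36) and Rela (1.91, 0.64 to 3.04) were higher as well, on 6 to 9 UMIs each. Sod2 was level per barcode, with 39.6 and 40.5 per 100 and a log2 ratio of 0.05 (-0.67 to 0.69), under the all-gene median of 0.93. The intervals of Nfkbia, Nfkbib, Tnfrsf1a, Icam1, Il1b and Vcam1 included 0. Macrophage tracers had 0.830 UMIs per Malat1-rich and 1.02 per Malat1-poor barcode, and endothelial tracers 0.509 and 0.608.

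**Figure D4:**
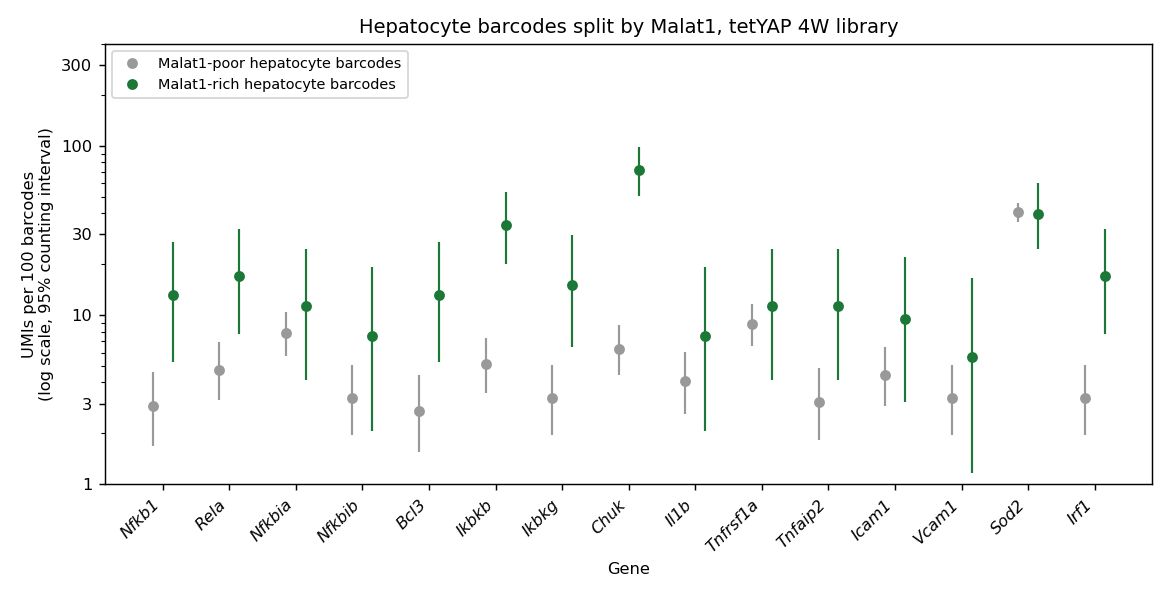
UMIs per 100 barcodes (vertical, log scale, with 95% counting intervals) of 15 members, each with 20 or more UMIs in tetYAP 4W hepatocyte barcodes, in Malat1-poor (grey, 587) and Malat1-rich (green, 53) barcodes. Chuk shows the widest gap, 71.7 against 6.30, while the points of Sod2 coincide.

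Within a class, most intervals of the members included 0. Control counts were small. Only Tnfaip2 in macrophages and Tnfrsf1a, Irf1 and Sod2 in endothelial cells had 20 UMIs in control, and no member did in T or NK cells. All others passed the minimum only with their tetYAP 4W UMIs. In macrophages 24 members had 20 UMIs, with a median log2 ratio of CPM of -0.09 beside -0.29 for all genes. The counting interval included 0 for 20 of the 24, lay above 0 for 2 and below 0 for 2, beside 4.8% above and 8.31% below among all 5850 genes that were no class markers. Il1b was higher in tetYAP 4W macrophages, with 83.3 UMIs per 100 barcodes against 35.7 in control (1.08, 0.18 to 2.16), and Icam1 had 89 UMIs against 1, an interval from 0.56 to 8.39. Tnfaip2 was lower, with 53.5 per 100 against 85.7 (-0.82, -1.45 to -0.13). Tnf was lower as well, with 5.58 per 100 against 17.9 in control (-1.82, -3.35 to -0.0039). It rested on 15 UMIs against 5 in 28 control barcodes, and the upper bound touched 0. In endothelial cells, 3 of 15 members had intervals above 0 and 1 below, beside 15.9% and 9.55% of all 5907 genes. The 3 were Vcam1 with 40.8 per 100 against 8.62 (1.98, 0.68 to 3.65), Il1a with 72.8 against 32.8 (0.89, 0.18 to 1.68) and Tnfrsf1a with 91.2 against 44.8 (0.76, 0.15 to 1.43). Sod2 was lower in endothelial barcodes too, with 49.0 per 100 against 84.5 (-1.05, -1.59 to -0.50). Free hepatocyte RNA was not subtracted within a class. Endothelial barcodes held a median of 374.5 hepatocyte marker UMIs in control and 259 in tetYAP 4W. For Sod2, fewer transcripts of endothelial cells and less free hepatocyte RNA cannot be told apart here. In T or NK cells, 8 of 9 intervals included 0, 1 lay above it and 0 below, beside 5.23% above and 6.97% below among all 3171 genes. The interval of Nfkbia lay above 0, with 74 UMIs in tetYAP 4W against 0 in the 10 control barcodes.

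Of 60 other genes of the same signalling routes, all were found and 50 passed the minimum over all barcodes, 28 being at least 2-fold higher and 1 lower (median log2 ratio 1.14), beside 36.1% and 7.83% of all genes; 18 of the 50 had under 20 UMIs in control. In hepatocyte barcodes 35 passed, 3 higher and 5 lower, with a median of -0.07, beside 12.3% and 19.3% of all genes. The most abundant in tetYAP 4W were Zfp36, an mRNA decay factor for cytokine transcripts (330 and 807 UMIs), Cflar, the inhibitor of caspase-8 (409 and 399), and Ltb, a lymphotoxin (17 and 379). In hepatocyte barcodes of tetYAP 4W, 18 of 21 with enough UMIs were above free RNA of other classes, beside 93.6% of all genes. Sigirr, an inhibitory receptor of the IL-1 family that was picked after its value was seen, stood highest with 38 UMIs against 2.51 expected (ratio 15.1, 5.15 to 31.1). Il1rap, the IL-1 coreceptor, had 79 against 9.41 (8.39, 4.33 to 16.1) and the kinase Ikbke 21 against 3.41 (6.15, 2.06 to 14.1). In control all 31 with enough UMIs were above it, beside 98.9% of all genes, with Il1rap (565 against 5.91), Tirap (99 against 1.39), Tradd (75 against 1.14), Tab3 (26 against 0.412) and Ikbke (55 against 0.900) in front.

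The study names 31 NF-kB target genes, 3 of which are members here. It chose this list on these samples, so the direction of the list is not independent evidence. Over all barcodes 30 of 31 were at least 2-fold higher in tetYAP 4W (median log2 ratio 3.71), beside 36.1% of all genes, and in hepatocyte barcodes 23 of 26 (2.50), beside 12.3%. Of the 31, 10 had under 20 UMIs in control, and of the 26, 13 had under 20 in control hepatocyte barcodes, so that they passed through tetYAP 4W. Fos (408 and 1467 UMIs), Jun (300 and 1207) and the fatty acid receptor Cd36 (112 and 1154) were the most abundant. Their UMIs in tetYAP 4W lay in macrophage barcodes for 40.6% and in hepatocyte barcodes for 11.2%. Only 5 of the 23 with enough UMIs in tetYAP 4W hepatocyte barcodes were above free RNA of other classes, beside 93.6% of all genes. These, of which Bcl2 was named after its values were seen, were Csf1, the macrophage growth factor (197 UMIs against 13.2 expected, ratio 14.98, 9.99 to 21.3), Cd36 (320 against 65.8, 4.86, 3.88 to 6.03), Lats2 (27 against 8.47, 3.19, 1.39 to 6.83), Bcl2 (27 against 9.56, 2.82, 1.28 to 5.73) and Icam1. In control 6 of 13 were, beside 98.9%, among them Lats2 (45 against 3.60), Tnfaip2 (144 against 12.1), Cxcl9 (43 against 5.02) and Irf7 (54 against 6.60).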

How the data were processed

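The authors deposited counts: whole numbers of UMIs per gene and barcode of 2 libraries, made per the labels and the study's methods with Cell Ranger on mm10, down-sampled per condition and cut at a maximum of UMIs per barcode. All 4513 barcodes were used; doublets were not removed. A class was called from summed marker UMIs per barcode; hepatocyte barcodes held at most 2 to 5 UMIs of each other class, and a class at least 5 to 20 of its own and of no other. Free RNA was summed over classes with 10 or more barcodes. Members and lists were chosen with earlier results of these data known, and class limits after marker counts were seen. CPM are UMIs scaled to the total of the summed barcodes; counts under 3 were set to 3 per library, and ratios needed 20 UMIs. Sums have exact Poisson intervals, ratios exact conditional binomial and shares exact (Clopper-Pearson) intervals; those of expected UMIs are gamma (Fay and Feuer), and those of observed over expected divide the bounds. The functions were checked on simulated counts. Named genes of the other lists were the 5 highest by observed over expected UMIs among those above free RNA in either library and the 3 with the most tetYAP 4W UMIs. Gene positions are RefSeq on GRCm38.p6, the build mm10 names; 11 members overlap another annotated gene, and strand was not used in that check. Python 3.11.15, scipy 1.17.1, R 4.3.3 and edgeR 4.0.16 (TMM factors only) were used. Other limits, Leiden clusters, scalings, minimums, thinning and folds were tried as alternatives.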

Additional observations from a re-analysis of the deposited data

How the results depend on the processing

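With 1 library per group no replicate could be left out. No paired analysis was possible because each group had 1 library and the labels give no replicate numbers. Of 88 summary values recomputed under alternatives, 64 stayed within the counting interval or within 1.5 times of a count, and 24 moved; of 434 values of single members 281 stayed, 130 moved and 23 changed sign. The causes were not tested, except that thinning and higher minimums leave fewer UMIs by construction.

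In hepatocyte barcodes, lower limits on marker UMIs gave 5 members higher and a share of 10.1% of the tetYAP 4W member UMIs, and higher limits 5 above free RNA and a share of 19.9%. Leiden clusters, of which those that met no marker rule were named hepatocyte, gave a median log2 ratio of 1.57, 17 higher, 18 above free RNA and a share of 35.2%. Totals without mitochondrial and the 50 most abundant genes gave 0 lower and TMM factors 1 lower. A minimum of 50 UMIs gave 2 higher and 4 above free RNA. Without barcodes above 30% mitochondrial UMIs the median was 1.14, with 0 lower (also 0 over all barcodes), 3 above free RNA and a share of 7.85%. Thinning to 1000 UMIs, which left out 25 control barcodes, gave 1 higher, and a median of 1.65 over all barcodes. A fold of 3 left 0 lower in both sets of barcodes. The lymphoid and erythroid reference left 1 above free RNA in tetYAP 4W, without a share of all genes to set beside it. Of the settings added after seeing the data, these changed a summary or a sign: Malat1-rich barcodes alone, where 3 members had enough UMIs, gave 0 higher and 0 lower, and without barcodes with leukocyte RNA the log2 of observed over expected UMIs of Il1b in tetYAP 4W was -0.014.

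Other changes of sign were, in log2 ratios of hepatocyte barcodes, Tnfaip2 0.013 with Leiden clusters and 0.84, Chuk 1.14 and Ikbkg 0.41 without barcodes above 30% mitochondrial UMIs. In log2 of observed over expected UMIs in tetYAP 4W, higher limits gave Nfkbia -1.22, Icam1 -0.17 and Irf1 -0.80. The lymphoid and erythroid reference gave Rela -0.54, Nfkbia -2.31, Nfkbib -0.89, Bcl3 -1.02, Ikbkb -1.68, Ikbkg -0.10, Chuk -0.057, Tnfrsf1a -0.13, Icam1 -1.26, Sod2 -0.10 and Irf1 -2.15, and in control Ikbkb -0.059, Chuk -0.64, Tnfrsf1a -0.19 and Irf1 -3.71.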
